A study of Homo sapiens with 15 samples.

Results

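Release of U2OS cells from a double thymidine block into S-phase was measured with the DMSO vehicle alone, by setting 3 S-phase libraries (replicates 1, 2 and 3) against 2 libraries of non-released, still blocked cells (replicates 1 and 2). These are 5 of the 15 RNA sequencing libraries of the series, taken by their labels from 1 table of deposited values. U2OS cells derive from an osteosarcoma and have wild-type p53. Both groups had been kept in 2 mM thymidine over 16 h, given 8 h without it and kept in 2 mM thymidine for another 16 h, and both received DMSO in the last 4 h before the release or the continued block. S-phase cells were washed free of thymidine and harvested after 4 h in medium with fetal calf serum. The labels do not say when blocked cells were harvested or whether they were washed too, so that release, washing and time cannot be told apart. The other libraries were asynchronous cells and cells given Nutlin, an antagonist of the p53 ligase MDM2. Of these, 2 Nutlin S-phase and 2 Nutlin non-released libraries gave the same release in libraries of their own.

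Excess thymidine disturbs the deoxynucleotide pools by feedback on ribonucleotide reductase and holds cells at the start of S-phase, and washing it out lets replication go on in step. Genes of the G1/S transition are switched on by E2F factors before replication begins, and genes of G2 and mitosis come on later. Replication-dependent histone genes supply the histones that package newly made DNA. Their transcripts end in a stem-loop in place of a poly(A) tail, build up while DNA is copied and are broken down when copying stops.

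Reads assigned to genes, as recovered from the deposited values, came to 19.02, 6.05 and 15.93 M reads (M for mega) in S-phase replicates 1, 2 and 3, against 18.94 and 23.38 M reads in non-released replicates 1 and 2. A gene with 0 reads could still hold up to 3, which is 0.496 counts per M reads in S-phase replicate 2 and 0.128 to 0.188 in the other 4 libraries, for counting error only. The shallow S-phase replicate 2 stood apart from its group: in 348 of the 14298 genes tested it lay 1 unit or more above the mean of replicates 1 and 3, and in 10 genes as far below. Replicates 1 and 3 lay that far apart in 1 gene. The genes farthest above in replicate 2, which describe the library and are not results, included RN45S, the precursor of ribosomal RNA, the RNA polymerase II subunit gene POLR2A and the splicing factor gene SRRM2. POLR2A stood at 8.82, 11.32 and 8.85 in S-phase replicates 1, 2 and 3, against 9.36 and 9.24 in non-released replicates 1 and 2. RN45S took 0.29, 2.82 and 0.41% of reads in the S-phase replicates, against 0.14 and 2.45% in the non-released replicates, so both replicates numbered 2 were high. Under Nutlin, replicate 2 was the higher in S-phase (0.1 and 2.54%) but replicate 1 in non-released cells (3.7 and 0.6%). Asynchronous DMSO replicates 1 and 2 were at 1.42 and 0.14%, so the numbering did not hold across groups. Over 13937 genes the deviation of S-phase replicate 2 had a rank correlation of 0.318 with GC content and 0.308 with transcript length, given as a description. The part of GC content and length in the results was not tested, and the counts of calls over all genes and over each gene list are given below with and without this library. Of 10 mesenchymal markers, 8 exceeded 100 normalised reads in every one of the 5 libraries. Their summed level was 62680 to 86480 in S-phase and 61810 and 64440 in non-released cells, with COL1A2 under 10 reads and TWIST1 at 0 throughout. Only 1 of 12 epithelial markers, CLDN4, exceeded 100 reads, at sums of 484.3 to 595.4 in S-phase and 471.3 and 517.7 in non-released cells. Of 8 luminal breast markers 3 did so in every one of the 5 libraries, XBP1 and the keratin genes KRT8 and KRT18. The luminal sums were 14890 to 18110 in S-phase and 15390 and 15550 in non-released cells. No marker of mesenchymal, epithelial or luminal breast cells passed the test, and none of 6 blood markers was high enough to be tested. The spread behind that test takes in the library labelled DMSO asynchronous replicate 3, where the epithelial markers summed to 15780 normalised reads, against 328 and 310.2 in asynchronous replicates 1 and 2. Without it 0 of these markers passed either, and with S-phase replicate 2 left out as well 1 luminal marker did. That library stood apart from its group in these markers and is in neither compared group.

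After release 587 genes rose and 413 fell of 14298 tested at an adjusted p under 0.05 (limma, two-sided, Benjamini and Hochberg), which is 6.99% of all genes. Leaving out S-phase replicate 2, 663 rose and 449 fell, 7.78% of all genes. Of the genes called with all libraries, 486 that rose (82.8%) and 310 that fell (75.1%) were called alike without it, and 0 were called in opposite directions. Leaving out non-released replicate 1 or 2 instead gave 277 and 233 calls, with the lone blocked library assumed to vary like the other groups. Large changes were mostly upward: among called genes, 129 were higher by 1 unit or more of the log2 scale and 28 lower by as much. Of those 129, 37 were replication-dependent histone genes. The median difference over all genes tested was -0.01. The replicates are not said to be separate cultures, so p-values measure a spread between libraries that may be technical. That spread was taken within the groups of all 15 libraries, most of them outside this comparison. With only the S-phase and non-released DMSO libraries fitted, 335 genes passed (238 higher, 97 lower).

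**Figure D1:**
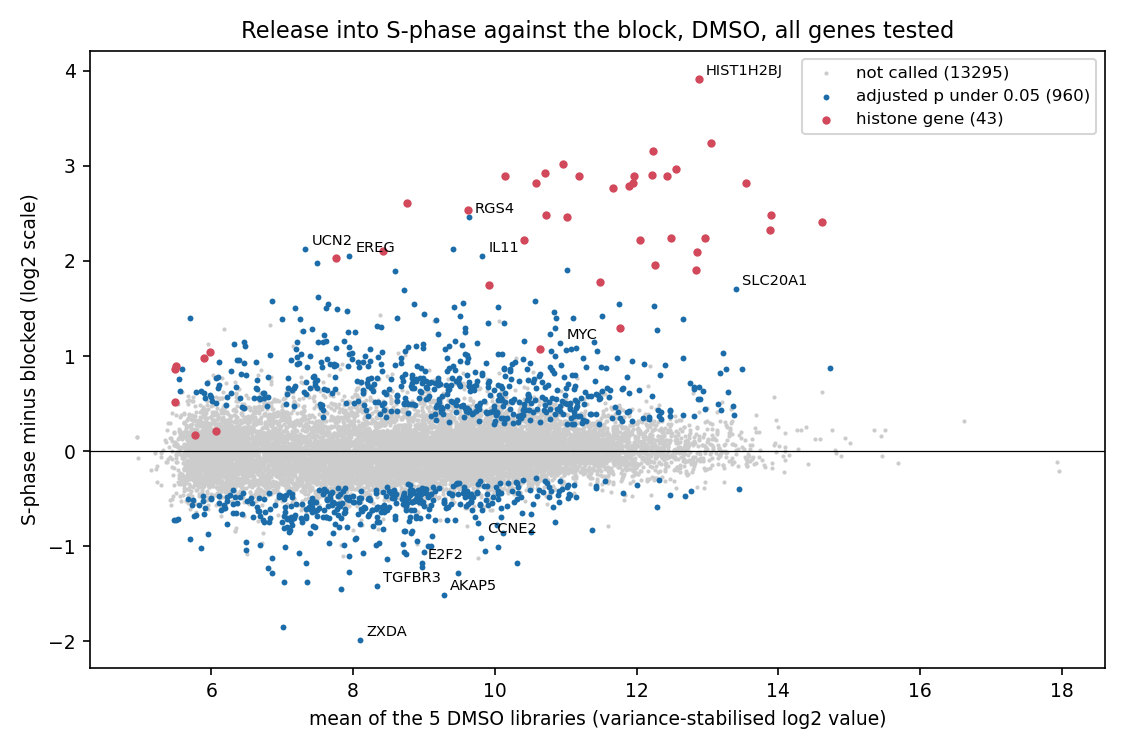
Difference between S-phase and blocked cells in DMSO (y axis, log2 scale) against the mean of the 5 DMSO libraries (x axis, variance-stabilised log2 value), 1 point per gene tested. Grey points were not called, blue points were called at adjusted p under 0.05, and the 43 tested histone genes in red reach the top of the plot, with HIST1H2BJ at 3.92.

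Replication-dependent core histone transcripts rose together after release. Of 60 listed core histone genes 40 were abundant enough to test, and 37 of the 40 rose, against 4.11% of all genes called higher. Their median difference was 2.28, beside -0.01 over all genes, and 2.38 without S-phase replicate 2, where 37 rose as well, against 4.64% of all genes. In 39 of 40 every S-phase library lay above both non-released libraries, which held for 17.7% of all genes. All 3 linker histone genes that could be tested rose, at a median of 2.49, and did so at 2.55 without replicate 2. Near-identical coding sequences are common among histone genes, and reads of such copies may be split or lost in counting. Of the 22 histone genes too low to test, 7 were listed at the lowest value in all 5 libraries, among them the duplicated pairs HIST2H2AA3 and HIST2H2AA4, HIST2H3A and HIST2H3C, and HIST2H4A and HIST2H4B. The 22 can give no call, so the 37 do not stand for all 60. How messenger RNA was selected is not stated in the labels, so the share of histone transcripts without a poly(A) tail that was captured is unknown. In bulk libraries more cells that express a gene and more RNA per cell cannot be told apart.

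Promoters of the histone genes with the largest rise in their class, apart from H2A, are shown because these genes moved together. The sequences are RefSeq's, on GRCh38.p14, from 250 bases before to 50 bases after the annotated start, 5′ to 3′ on the gene's own strand. They lie at chr6:27132746-27133045 (minus strand, HIST1H2BJ), chr6:26020201-26020500 (plus, HIST1H3A), chr6:26027234-26027533 (minus, HIST1H4B) and chr6:26017738-26018037 (minus, HIST1H1A). Capitals mark, on either strand, the octamer ATTTGCAT, known as a POU2F1 site of H2B promoters, the CCAAT box to which NF-Y is known to bind, the TATA box in its form TATAAA and, in the linker histone promoter only, the H1 box AAACACA. Where a TATA box meets its own reverse complement the marks overlap.
HIST1H2BJ: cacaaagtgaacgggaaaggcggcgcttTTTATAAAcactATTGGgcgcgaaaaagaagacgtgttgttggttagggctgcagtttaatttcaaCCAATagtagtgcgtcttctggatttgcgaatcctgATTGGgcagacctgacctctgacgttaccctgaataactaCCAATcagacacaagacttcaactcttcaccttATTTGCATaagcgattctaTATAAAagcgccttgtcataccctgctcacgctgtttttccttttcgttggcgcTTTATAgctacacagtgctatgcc
HIST1H3A: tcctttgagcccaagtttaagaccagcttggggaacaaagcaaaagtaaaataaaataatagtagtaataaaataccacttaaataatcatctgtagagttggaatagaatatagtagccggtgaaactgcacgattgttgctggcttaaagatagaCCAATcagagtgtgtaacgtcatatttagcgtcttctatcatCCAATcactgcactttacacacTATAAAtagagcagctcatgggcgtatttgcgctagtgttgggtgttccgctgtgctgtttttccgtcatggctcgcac
HIST1H4B: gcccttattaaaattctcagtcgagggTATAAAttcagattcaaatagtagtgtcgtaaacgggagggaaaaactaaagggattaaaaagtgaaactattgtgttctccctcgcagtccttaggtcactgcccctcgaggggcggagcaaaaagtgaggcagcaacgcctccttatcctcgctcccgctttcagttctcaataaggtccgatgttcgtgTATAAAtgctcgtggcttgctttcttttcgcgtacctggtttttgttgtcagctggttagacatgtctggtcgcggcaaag
HIST1H1A: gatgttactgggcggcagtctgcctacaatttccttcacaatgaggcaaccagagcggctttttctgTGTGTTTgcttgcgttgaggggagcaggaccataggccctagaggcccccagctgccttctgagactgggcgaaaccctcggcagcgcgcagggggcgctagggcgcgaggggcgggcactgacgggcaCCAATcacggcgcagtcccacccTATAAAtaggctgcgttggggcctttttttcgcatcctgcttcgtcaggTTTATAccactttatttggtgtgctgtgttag

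Promoter windows were matched for 35 of the 43 tested histone genes. CCAAT was in 29 of the 35, against 34.6% of 35116 RefSeq promoters of the same length, and TATAAA in 26, against 11.5%. The octamer was in 6 of 9 H2B and 8 of 10 H2A windows, against 1.77% of all promoters. Neighbouring H2A and H2B genes run in opposite directions from a shared stretch, as with HIST1H2BJ and HIST1H2AG, whose windows overlap by 253 bases, so their counts are not independent. H4 windows differed, with CCAAT in 1 of 7, as the HIST1H4B sequence above shows. AAACACA was in 3 of 3 linker histone windows, against 5.64% of all promoters. These matches describe the letters and show no binding.

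HIST1H2BJ, which encodes a form of histone H2B, had the largest rise of any gene tested. It counted 23200, 18770 and 25380 normalised reads in S-phase replicates 1, 2 and 3, against 1513 and 1336 in non-released replicates 1 and 2. On the log2 scale that was 14.45 ± 0.22 (SD, n = 3) in S-phase and 10.53 ± 0.12 (SD, n = 2) in non-released cells, a difference of 3.92 ± 0.31 (SE, adjusted p = 1e-05). The groups lay far apart, and S-phase replicate 2, though the lowest of its group, stood over every blocked value. Without replicate 2 the difference was 4.04 (adjusted p = 2.49e-05). Of 13 tested H2B genes 12 rose, at a median of 2.24. The exception, HIST1H2BO, had at most 19.8 normalised reads in any of the 5 libraries and a difference of 0.52 (adjusted p = 0.106). HIST1H2BM (2.93 ± 0.28), HIST1H2BF (2.82 ± 0.19), HIST2H2BE (2.79 ± 0.18) and HIST1H2BG (2.61 ± 0.19) rose beside HIST1H2BJ.

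All 11 tested H2A genes rose, at the highest median of the core histone classes, 2.82. HIST1H2AH stood at 14.35, 14.11 and 14.56 in S-phase replicates 1, 2 and 3, against 11.21 and 10.98 in non-released replicates 1 and 2 (difference 3.24 ± 0.26, adjusted p = 1.01e-05). HIST1H2AI (3.02 ± 0.20) and HIST2H2AC (2.90 ± 0.23) followed. The smallest H2A rise was 2.03, for HIST1H2AD. Histone H3 genes gave 6 of 7 higher at a median of 2.32, with HIST1H3A at 13.57, 13.32 and 13.61 in S-phase cells, against 10.39 and 10.29 in non-released cells (difference 3.16 ± 0.27, adjusted p = 1.38e-05). HIST1H3E was low throughout, at 6.11, 6.12 and 6.22 in S-phase and 6.10 and 5.78 in non-released cells (difference 0.21, adjusted p = 0.644).

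Histone H4 genes had the lowest median of the core classes, 1.95, with 8 of 9 higher. HIST1H4B was at 13.85, 13.60 and 13.79 in S-phase cells, against 10.88 and 10.68 in non-released cells (difference 2.97 ± 0.32, adjusted p = 8.67e-05). The rises of HIST1H4C (1.29 ± 0.32) and HIST1H4D (1.07 ± 0.28) were among the smallest. HIST1H4J, at most 19.8 normalised reads, was the only tested histone gene whose groups overlapped (difference 0.17, adjusted p = 0.645). Linker histone H1 binds DNA between nucleosomes. HIST1H1C had 51040, 44460 and 52240 normalised reads in S-phase cells, against 9599 and 8820 in non-released cells (difference 2.41 ± 0.21, adjusted p = 1.53e-05). HIST1H1A rose by 2.77 ± 0.21 and HIST1H1E by 2.49 ± 0.20. S-phase replicate 2 was the lowest of its group in 37 of the 43 tested histone genes, against 45.7% of all genes, and lay a median of 0.26 under the mean of replicates 1 and 3.

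**Figure D2:**
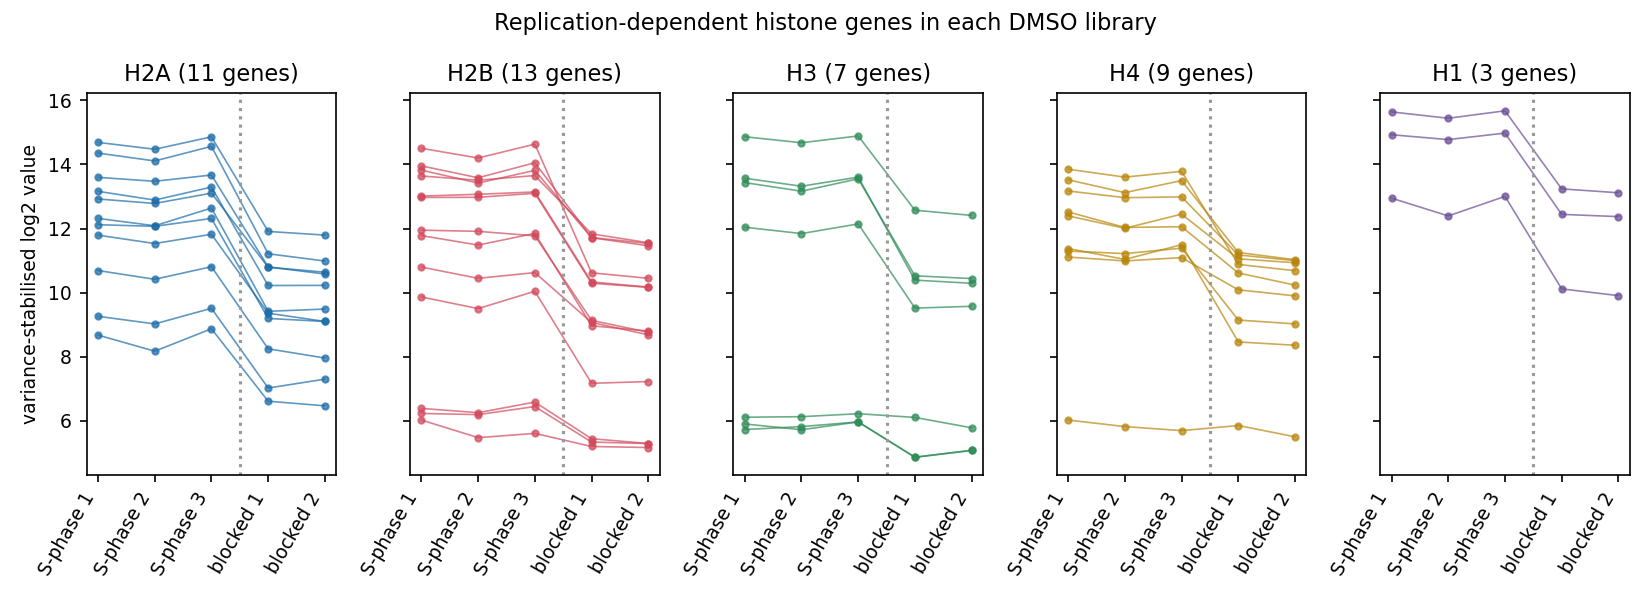
Variance-stabilised log2 value (y axis) of every tested replication-dependent histone gene in S-phase replicates 1 to 3 and, right of the dotted line, blocked replicates 1 and 2 (x axis), with 1 line per gene and 1 panel per class. Lines step down to the blocked libraries except in a few genes near 6, and S-phase replicate 2 dips slightly under its group.

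Histone genes outside the replication-dependent lists were looked at after their values were seen. H1F0, a linker histone gene usually expressed outside S-phase and with a poly(A) tail, stood at 13.28, 13.33 and 13.04 in S-phase and 11.69 and 11.96 in non-released cells (difference 1.39 ± 0.14, adjusted p = 6.07e-05). H3F3B, which encodes the replacement histone H3.3, rose by 0.47 ± 0.13 (adjusted p = 0.0386). H2AFX had a difference of 0.46 (adjusted p = 0.0849) and H2AFZ of -0.07 (adjusted p = 0.854). Of 26 genes listed for the transcription or processing of histone messages and its control 0 rose and 1 fell, at a list median of -0.03. The 1 that fell was the cyclin gene CCNE2, which is counted again below among the E2F-controlled G1/S genes. Without S-phase replicate 2 the counts were the same and the median was 0.02. The 1 of 26 is 3.85%, near the 2.89% of all genes called lower. SLBP, which binds the histone stem-loop, stood at 10.27, 9.84 and 10.21 in S-phase and 10.32 and 10.33 in non-released cells (difference -0.22 ± 0.13, adjusted p = 0.373). The histone H4 regulator HINFP had a difference of -0.32 (adjusted p = 0.0737).

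**Figure D3:**
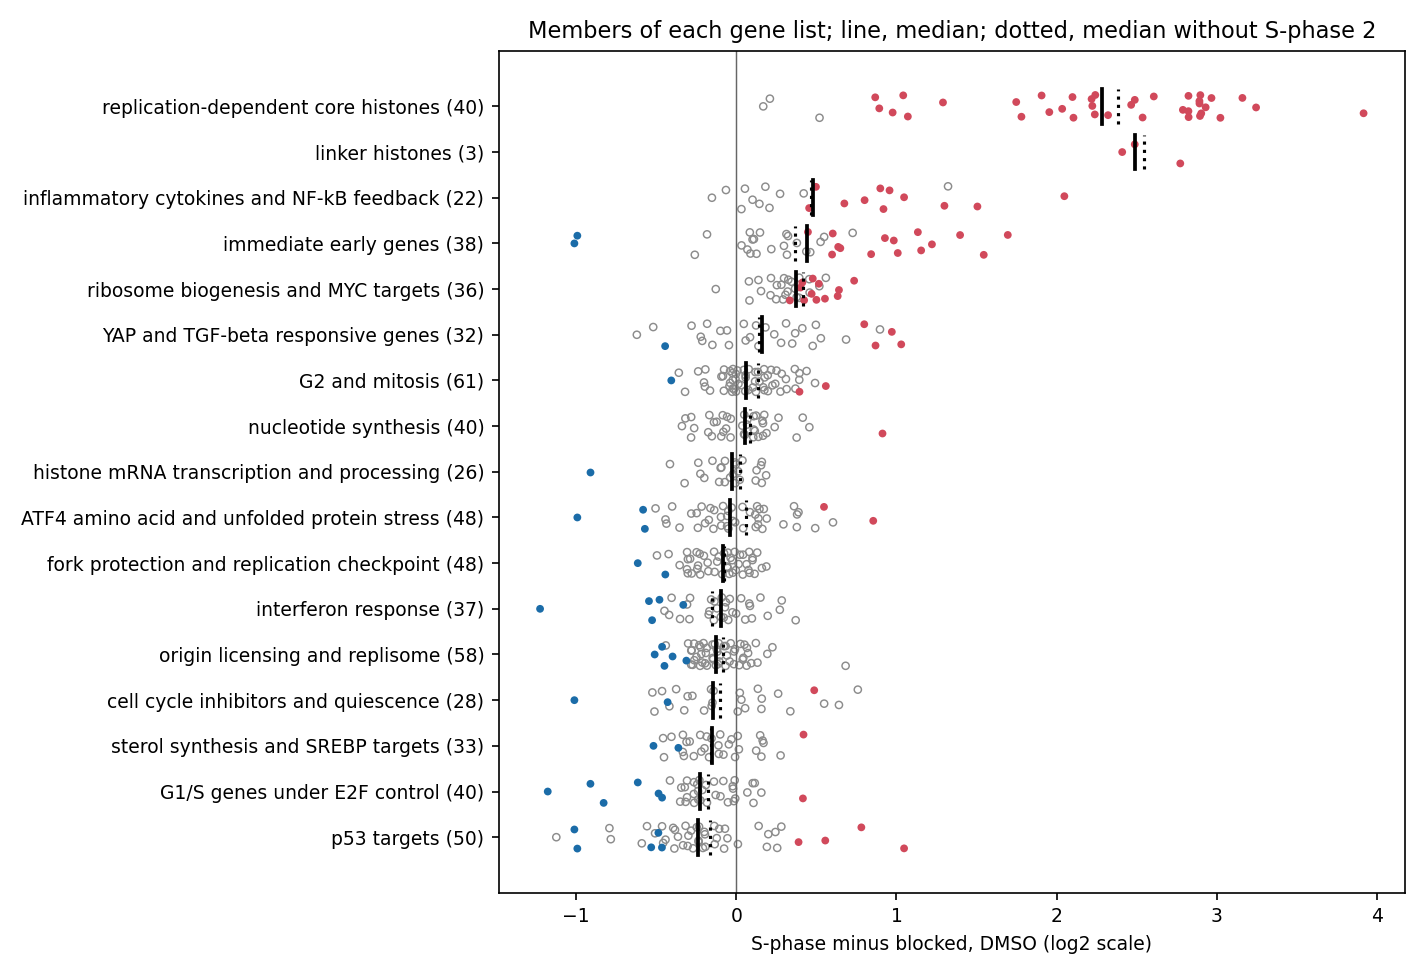
Difference between S-phase and blocked cells in DMSO (x axis, log2 scale) for each tested member of 17 gene lists (y axis, number of tested members in brackets). Red and blue points were called higher and lower, open points were not called, and bars and dotted bars give the list medians with all libraries and without S-phase replicate 2. The histone lists stand apart at medians of 2.28 and 2.49, and the p53 and G1/S lists have the lowest medians, -0.24 and -0.23.

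E2F-controlled genes of the G1/S transition were mostly lower after release where they were called, with 6 of 40 lower (against 2.89% of all genes), 1 higher and a median of -0.23. Without S-phase replicate 2, where 3.14% of all genes were called lower, the counts were the same and the median was -0.18. Without the library labelled DMSO asynchronous replicate 3, an alternative chosen after seeing the data, 11 of 40 were lower, against 4.38% of all genes. Apart from the markers, only this list and the p53 targets are given without that library. E2F2, an activating E2F factor, stood at 8.46, 8.62 and 8.42 in S-phase replicates 1, 2 and 3, against 9.53 and 9.83 in non-released replicates 1 and 2 (difference -1.18 ± 0.16, adjusted p = 0.000706). CCNE2, the cyclin that with CDK2 starts S-phase, stood at 9.52, 9.21 and 9.61 in S-phase and 10.38 and 10.33 in non-released cells (difference -0.91 ± 0.13, adjusted p = 0.00112). FAM111B, a protease gene, fell by 0.83 and ZNF367, a zinc finger factor gene, by 0.61. E2F1 fell by 0.48 (adjusted p = 0.0255), and it and ZNF367 lost the call without either blocked library (adjusted p from 0.0577 to 0.283). The exception, E2F3, rose by 0.42 (adjusted p = 0.0365). CCNE1 had a difference of -0.41 ± 0.13 (adjusted p = 0.0817) and the D-type cyclin gene CCND1 of 0.16 ± 0.08 (adjusted p = 0.28). The thymidine kinase gene TK1 (-0.26 ± 0.12, adjusted p = 0.235) and the licensing factor gene CDC6 (-0.23 ± 0.11, adjusted p = 0.238) were not called, though all S-phase values of both were under both blocked values. RRM2, the S-phase subunit of ribonucleotide reductase, overlapped between groups at 13.49, 13.52 and 13.26 in S-phase and 13.42 and 13.28 in non-released cells (difference 0.07, adjusted p = 0.821).

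Among 58 genes that license origins or form the replisome 0 rose and 5 fell (8.62%, against 2.89% of all genes), at a median of -0.12. ORC1, a subunit of the origin recognition complex, stood at 10.14, 10.05 and 10.14 in S-phase and 10.60 and 10.64 in non-released cells (difference -0.51 ± 0.10, adjusted p = 0.00731). The polymerase clamp gene PCNA fell by 0.46 (adjusted p = 0.0243), the flap nuclease and helicase gene DNA2 by 0.40, the kinase gene CDC7 by 0.45 and WDHD1, a gene of the replisome, by 0.31. PCNA is also among the 6 lower genes of the G1/S list, as these lists share members. CDC7 and WDHD1 lost the call without S-phase replicate 2 (adjusted p = 0.0838 and 0.0664), which left 3 lower at a median of -0.08, where 3.14% of all genes were lower. ORC1, PCNA, DNA2 and CDC7 lost it without either blocked library (adjusted p from 0.0652 to 0.238). MCM5 of the replicative helicase had a difference of -0.19 ± 0.11 (adjusted p = 0.362). Of 48 fork protection and checkpoint genes 2 fell (4.17%, near the 2.89% of all genes), the recombination gene RAD54B (-0.61 ± 0.11, adjusted p = 0.00504) and the helicase gene BRIP1 (-0.44 ± 0.09, adjusted p = 0.0102). BRIP1 lost the call without either blocked library (adjusted p = 0.114 and 0.0917) and RAD54B without non-released replicate 2 (adjusted p = 0.0766). Without S-phase replicate 2, RMI1 and FANCB were called lower too, which made 4 of 48, against 3.14% of all genes.

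Of 61 genes of G2 and mitosis 2 rose (3.28%) and 1 fell (1.64%) at 4 h, at a median of 0.06. Both shares are near those of all genes, 4.11% higher and 2.89% lower. Without S-phase replicate 2 the counts were 7 higher, against 4.64% of all genes, and 1 lower, at a median of 0.13. The kinesin gene KIF14, which acts in cytokinesis, stood at 11.11, 10.94 and 11.04 in S-phase and 10.56 and 10.38 in non-released cells (difference 0.56 ± 0.10, adjusted p = 0.0036). PSRC1, a spindle gene, rose by 0.39 ± 0.10, while SGOL1, the protector of centromere cohesion, fell by 0.41. PSRC1 and SGOL1 lost the call without either blocked library (adjusted p from 0.168 to 0.303) and KIF14 without non-released replicate 2 (adjusted p = 0.0884). CDC20, the activator of the anaphase-promoting complex, stood at 11.40, 11.24 and 11.59 in S-phase and 10.97 and 11.06 in non-released cells (difference 0.39 ± 0.13, adjusted p = 0.0811). It passed without replicate 2 (0.48, adjusted p = 0.0363), as did the ubiquitin-conjugating enzyme gene UBE2C (0.58, adjusted p = 0.0317). The mitotic cyclin gene CCNB1 stood at 12.66, 12.20 and 12.73 in S-phase and 12.39 and 12.24 in non-released cells, where replicate 2 alone made the groups overlap (difference 0.22, adjusted p = 0.475, and 0.38, adjusted p = 0.0892, without it). CCNA2, which serves both S-phase and G2, had a difference of -0.02 ± 0.17 with all libraries and 0.17 without replicate 2 (adjusted p = 0.962 and 0.509). The mitotic kinase gene PLK1 had a difference of 0.44 ± 0.14 (adjusted p = 0.0768).

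Among genes of ribosome biogenesis and targets of MYC 12 of 36 rose (33.3%, against 4.11% of all genes) and 0 fell, at a median of 0.37. With S-phase replicate 2 left out, 22 of 36 rose, against 4.64% of all genes, at a median of 0.42. Without that library UTP20 lost its call (adjusted p = 0.0659) and 11 genes gained one, among them the nucleolar protein genes NOP56, NOP58 and DKC1. NOLC1, a nucleolar chaperone gene, stood at 11.24, 11.18 and 11.32 in S-phase and 10.75 and 10.74 in non-released cells (difference 0.50 ± 0.08, adjusted p = 0.0014). RRS1 (0.74 ± 0.13), RRP12 (0.52 ± 0.10) and RCL1 (0.55 ± 0.12), which act in ribosomal subunit assembly, rose too, but without non-released replicate 2 lost the call (adjusted p from 0.0949 to 0.188). MYC itself, a transcription factor known to drive ribosome production, stood at 11.13, 11.50 and 11.50 in S-phase and 10.26 and 10.23 in non-released cells (difference 1.13 ± 0.14, adjusted p = 0.000263), with no overlap. Without replicate 2 the difference was 1.07 (adjusted p = 0.000791).

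Immediate early genes, which respond quickly to growth factors, serum and stress, gave 15 higher and 2 lower of 38 at a median of 0.44. These are 39.5% and 5.26%, against 4.11% and 2.89% of all genes. They gave 13 higher and 1 lower when S-phase replicate 2 was left out, at a median of 0.37, against 4.64% and 3.14% of all genes. DUSP5, a phosphatase of nuclear ERK, stood at 9.25, 9.59 and 9.36 in S-phase and 7.99 and 7.42 in non-released cells (difference 1.70 ± 0.25, adjusted p = 0.00121). MAFF, a small MAF transcription factor gene, stood at 9.33, 9.42 and 9.67 in S-phase and 8.02 and 7.84 in non-released cells (difference 1.55 ± 0.20, adjusted p = 0.000427). The survival gene MCL1 rose by 0.65 ± 0.10. Both members that fell, ATF3 (-0.99 ± 0.15) and the antiproliferative gene BTG2 (-1.01 ± 0.27), are p53 targets as well. BTG2 lost its call without S-phase replicate 2 (adjusted p = 0.0792) or either blocked library (0.199 and 0.215). MYC, given above with ribosome biogenesis, is among the members that rose. FOS and EGR1 were not called. FOS stood at 7.54, 7.52 and 7.69 in S-phase and 7.53 and 7.46 in non-released cells (difference 0.08, adjusted p = 0.826). EGR1 stood at 6.64, 7.98 and 6.26 in S-phase and 7.28 and 7.01 in non-released cells, with replicate 2 the highest of the 5 (difference -0.18 ± 0.43, adjusted p = 0.858, and -0.69, adjusted p = 0.233, without it).

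Inflammatory cytokine and NF-kB feedback genes gave 11 higher (against 4.11% of all genes) and 0 lower of 22 at a median of 0.48. Leaving out S-phase replicate 2 gave 10 higher, against 4.64% of all genes, at a median of 0.47. IL11, a cytokine of the IL6 family, stood at 10.55, 10.90 and 10.46 in S-phase and 8.69 and 8.49 in non-released cells (difference 2.05 ± 0.32, adjusted p = 0.00176). LIF, of the same family, rose by 1.05 ± 0.18. BIRC3 (1.30 ± 0.19, adjusted p = 0.00117) and TNFAIP3 (0.92 ± 0.13, adjusted p = 0.00109), a ubiquitin ligase and an editing enzyme that are targets and regulators of NF-kB, rose as well. Of 32 YAP and TGF-beta responsive genes 4 rose (12.5%, against 4.11% of all genes) and 1 fell (3.12%, near the 2.89% of all genes) at a median of 0.16. PMEPA1 lost its call without S-phase replicate 2 (adjusted p = 0.0673), which left 3 higher and 1 lower at a median of 0.14. The matrix gene THBS1 rose by 0.87 ± 0.14 and the tissue factor gene F3 by 0.97 ± 0.19, while the stress gene GADD45B fell by 0.44. F3 and GADD45B lost the call without either blocked library (adjusted p from 0.0549 to 0.312) and THBS1 without non-released replicate 2 (adjusted p = 0.0571). The collagen marker COL1A1 and fibronectin, FN1, were highest in S-phase replicate 2, at 9927 and 28140 normalised reads.

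Outside the histone lists, the 12 largest rises, picked after their values were seen, were led by RGS4, a regulator of G protein signalling. It stood at 10.54, 10.62 and 10.69 in S-phase replicates 1, 2 and 3, against 8.39 and 7.93 in non-released replicates 1 and 2 (difference 2.46 ± 0.35, adjusted p = 0.000862). UCN2, a peptide of the corticotropin-releasing hormone family, stood at 8.08, 8.42 and 8.04 in S-phase and 6.18 and 5.93 in non-released cells (difference 2.12 ± 0.18, adjusted p = 1.38e-05). EREG, an EGF receptor ligand, rose by 2.05 ± 0.20 and the cytokine gene IL24 by 1.98 ± 0.21. Low values are compressed on this scale: with voom on recovered reads the difference was 3.43 for UCN2, 2.77 for EREG and 3.05 for IL24. SH2B3, an adaptor that restrains cytokine signalling, rose by 1.90 ± 0.17 and SLC20A1, an abundant phosphate transporter gene, by 1.71 ± 0.17. MICALCL (2.13 ± 0.27), CCDC144NL (1.90 ± 0.12), the acetylcholine receptor subunit gene CHRNA9 (1.62 ± 0.26) and MYCT1 (1.58 ± 0.28) were the others beside IL11 and DUSP5. None of the 12 lost its call without S-phase replicate 2, and MYCT1 lost it without non-released replicate 2 (adjusted p = 0.0603).

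On the variance-stabilised scale, which compresses low values, the largest fall was that of ZXDA, a zinc finger gene. It stood at 7.38, 7.06 and 7.47 in S-phase and 9.26 and 9.31 in non-released cells (difference -1.98 ± 0.16, adjusted p = 1e-05). Its near-identical neighbour ZXDB was lower too (-1.06 ± 0.15, adjusted p = 0.000773), and reads of the pair may be split between them. LOC100506895, with no function given in the files, stood at 6.25, 6.12 and 6.46 in S-phase and 8.07 and 8.19 in non-released cells (difference -1.85 ± 0.19, adjusted p = 6.06e-05). With voom on recovered reads LOC100506895 fell further than ZXDA, by -2.82 against -2.355. Other low genes also fell further there, such as FAM13C (-2.10), BMF (-2.02) and IFIT1 (-1.87). AKAP5, an anchor of protein kinase A, fell by 1.51 and EDN2, an endothelin, by 1.45. TGFBR3, the TGF-beta co-receptor betaglycan, stood at 7.76, 7.72 and 7.84 in S-phase and 9.23 and 9.15 in non-released cells (difference -1.42 ± 0.12, adjusted p = 1.03e-05). BMF, a BH3-only gene that promotes cell death, fell by 1.37 and the riboflavin transporter gene GPR172B by 1.29. FAM13C (-1.38), CRISPLD1 (-1.28), the adhesion gene FLRT3 (-1.27), the interferon-induced gene IFIT1 (-1.22) and the neuronal RNA-binding protein gene ELAVL2 (-1.22) made up the 12. All 12 stayed called without S-phase replicate 2, at differences from -1.02 for IFIT1 to -1.86 for ZXDA. BMF lost the call without either blocked library (adjusted p = 0.112 and 0.0675) and IFIT1 without non-released replicate 1 (adjusted p = 0.0583).

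**Figure D4:**
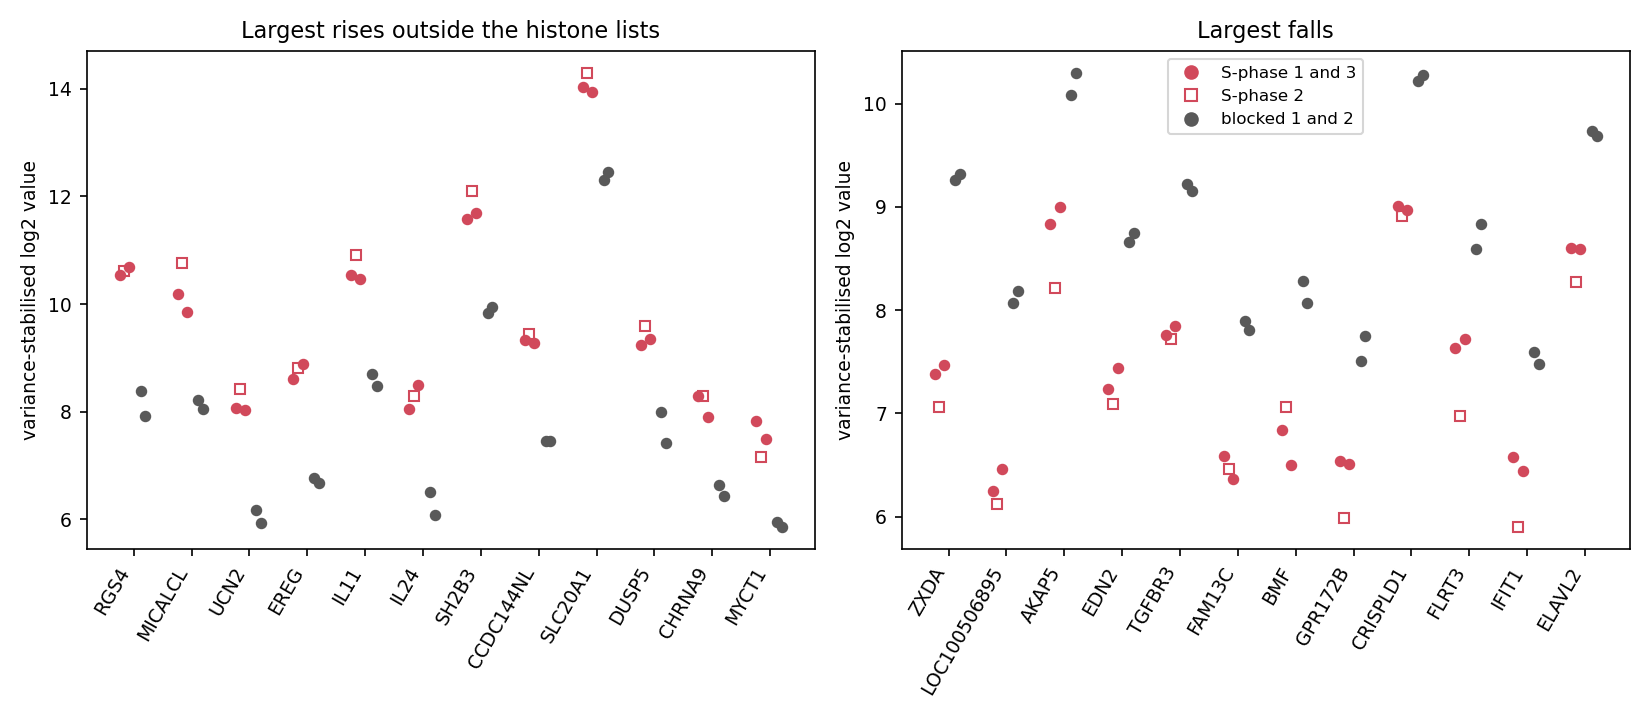
Variance-stabilised log2 value (y axis) in each DMSO library for the 12 largest rises outside the histone lists (left) and the 12 largest falls (right), 1 gene per position (x axis). Red points are S-phase replicates 1 and 3, open squares S-phase replicate 2 and dark points the blocked replicates. The genes were chosen for groups that do not overlap, and replicate 2 lies near its group, as for RGS4 at 10.62, or somewhat apart, as for AKAP5 at 8.21.

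The p53 targets had the lowest list median, -0.24, with 4 higher and 5 lower of 50 (8% and 10%, against 4.11% and 2.89% of all genes). The median was -0.16 without S-phase replicate 2, with 3 higher and 2 lower, against 4.64% and 3.14% of all genes. In 25 of the 50 every S-phase library lay below both non-released libraries, which held for 20.1% of all genes. Those that rose were LIF, the receptor kinase gene EPHA2 (0.78 ± 0.12), the death receptor gene TNFRSF10B (0.56 ± 0.11) and the kinase gene PLK3 (0.39). TNFRSF10B lost the call without non-released replicate 1 (adjusted p = 0.113). Those that fell were ATF3, BTG2, the repair gene DDB2 (-0.46), FBXO22 (-0.49) and the apoptosome gene APAF1 (-0.53). PLK3, DDB2 and APAF1 lost the call without S-phase replicate 2 (adjusted p = 0.0629, 0.0998 and 0.0709), as BTG2 did. CDKN1A, which encodes the CDK inhibitor p21, stood at 12.12, 11.77 and 12.18 in S-phase and 12.44 and 12.53 in non-released cells. All S-phase values lay below both blocked values, but the shared spread of the gene was wide (difference -0.46 ± 0.55, adjusted p = 0.696). MDM2 stood at 12.83, 12.49 and 12.80 in S-phase and 13.10 and 13.07 in non-released cells (difference -0.38 ± 0.47, adjusted p = 0.712). The library labelled DMSO asynchronous replicate 3, which stood apart from its group, enters that spread. Without that library, an alternative chosen after seeing the data, 15 of the 50 were lower and 4 higher, against 4.38% and 5.48% of all genes. Both genes then passed, CDKN1A at -0.46 (adjusted p = 0.0277) and MDM2 at -0.38 (adjusted p = 0.0348). Leaving out S-phase replicate 2 as well, they were at -0.34 and -0.27 (adjusted p = 0.0233 and 0.0314).

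Among 48 stress genes that answer to ATF4 or to unfolded proteins 2 rose (4.17%) and 3 fell (6.25%) at a median of -0.04, against 4.11% higher and 2.89% lower over all genes. HERPUD1, which acts in the degradation of misfolded proteins, stood at 11.07, 11.27 and 11.09 in S-phase and 10.29 and 10.28 in non-released cells (difference 0.86 ± 0.10, adjusted p = 0.000261). The amino acid transporter gene SLC7A5 rose by 0.55, and ATF3, FGF21 and NUPR1 fell. Leaving out S-phase replicate 2 gave 3 higher and 2 lower: SLC7A5 and NUPR1 lost the call (adjusted p = 0.0546 and 0.0569) and TRIB3 and SLC3A2 were called higher. Interferon response genes gave 0 higher and 5 lower of 37 (13.5%, against 2.89% of all genes) at a median of -0.10: IFIT1, IFIT2 (-0.53), IFIH1 (-0.54), CMPK2 (-0.48) and DTX3L (-0.33). When S-phase replicate 2 was left out 3 were lower, IFIT1, DTX3L and OAS3, against 3.14% of all genes. Of 33 genes of sterol synthesis 2 fell (6.06%, against 2.89% of all genes), INSIG1 (-0.52) and LPIN1 (-0.36), and INSIG1 lost the call without S-phase replicate 2 (adjusted p = 0.0605). Of 40 genes of nucleotide synthesis 1 rose with or without S-phase replicate 2 (2.5%, under the 4.11% of all genes), CTPS, the CTP synthase gene, at 12.67, 12.99 and 12.62 in S-phase and 11.90 and 11.81 in non-released cells (difference 0.91 ± 0.13, adjusted p = 0.000773). Cell cycle inhibitors and quiescence genes gave 1 higher, the growth factor receptor gene PDGFRA (0.49 ± 0.10), and 2 lower, BTG2 and the CDK inhibitor gene CDKN2C (-0.43 ± 0.11), of 28. These are 3.57% and 7.14%, against 4.11% and 2.89% of all genes, and without S-phase replicate 2 the loss of BTG2 left 1 higher and 1 lower. NUPR1, FGF21, IFIH1, CMPK2, DTX3L, INSIG1, LPIN1, PDGFRA and CDKN2C lost the call without either blocked library (adjusted p from 0.0536 to 0.323).

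The group means of the same release under Nutlin share no library with the DMSO comparison. The calls of both use the same spread per gene, taken within the groups of all 15 libraries, so they are not independent. Of the genes that rose in DMSO 580 of 587 (98.8%) were also above 0 under Nutlin, and of those that fell 404 of 413 (97.8%) were below 0. Over all genes tested 69.3% had the same sign in both releases. Under Nutlin 348 genes were called, 2.43% of those tested, and 203 that rose and 81 that fell were called alike in DMSO. Leaving out DMSO S-phase replicate 2 raised the Nutlin calls to 663 through the shared spread. Core histones had a median difference of 2.51 under Nutlin, with 34 of 40 called higher, against 1.6% of all genes. HIST1H2BJ rose there by 3.88 ± 0.34. Over all genes the differences of both releases had a Pearson correlation of 0.752, and 0.694 without the histone lists, as a description across genes that are not independent. The test of the difference between both releases called 0 of 14298 genes (limma, smallest adjusted p = 0.999, with 321 at an unadjusted p under 0.05), and voom also called 0, with 329 unadjusted. Genes called in DMSO only are therefore not shown to differ. MYC rose by 1.13 ± 0.14 in DMSO and had a difference of 0.40 ± 0.15 under Nutlin, MAFF 1.55 ± 0.20 and 0.49 ± 0.22, and DUSP5 1.70 ± 0.25 and 0.58 ± 0.28. FOS, not called in DMSO, fell by 0.95 ± 0.18 under Nutlin (adjusted p = 0.0142). The difference between releases was 0.74 ± 0.20 for MYC, 1.06 ± 0.30 for MAFF, 1.12 ± 0.38 for DUSP5 and 1.03 ± 0.25 for FOS, with an adjusted p of 0.999 each. These are all immediate early genes, given as examples. Other genes differed the other way, such as ZXDA (-0.95 ± 0.23) and TGFBR3 (-0.64 ± 0.17), also at an adjusted p of 0.999.

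**Figure D5:**
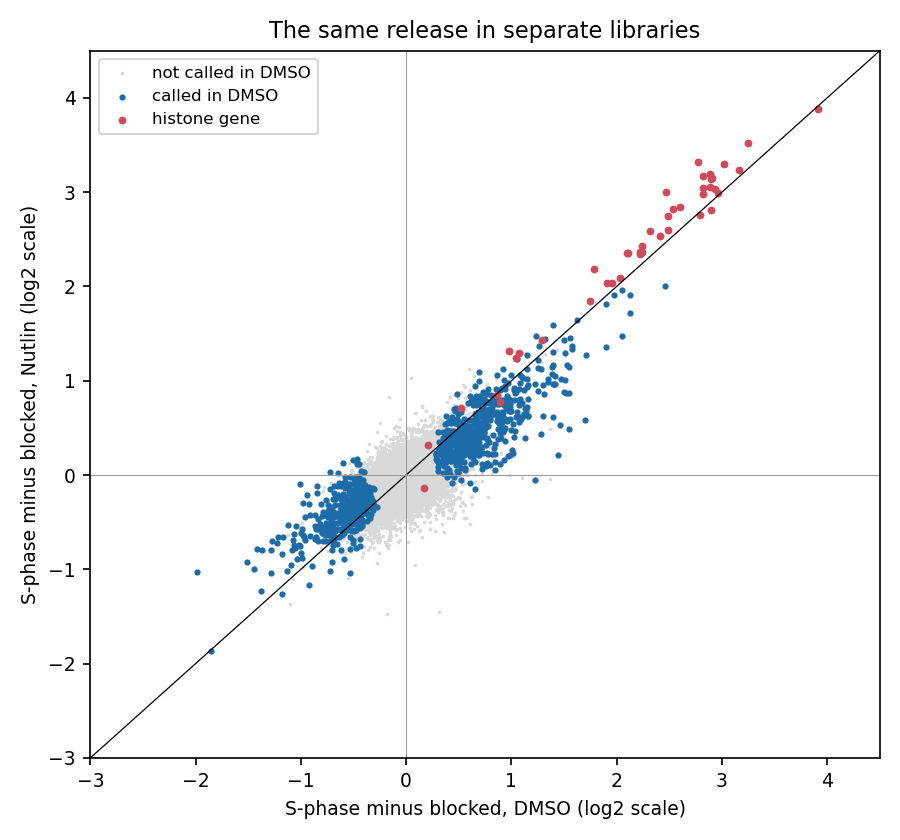
Difference between S-phase and blocked cells under Nutlin (y axis) against that in DMSO (x axis), both on the log2 scale, 1 point per gene tested, with the line of equal differences. Histone genes (red), except HIST1H4J at 0.17 and -0.14, and most genes called in DMSO (blue) lie in the quadrants of like sign. HIST1H2BJ is farthest out at 3.92 in DMSO and 3.88 under Nutlin.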

How the data were processed

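The authors deposited 1 table of variance-stabilised values for 23368 genes in 15 libraries, on a log2 scale at high expression and compressed at low read numbers. Upstream tools, per the submitters' processing notes, were DESeq2 1.10.1, HTSeq, TopHat 0.9 and CASAVA 1.8.2 on hg19, with no role stated. Per the labels' protocols, libraries came from total RNA by a TruSeq kit and were read as single reads. Strand and annotation are not given in the sources used here. Reads were recovered by inverting the transformation above its lowest value of 4.859. In 4 of the 5 DMSO libraries 100.0% of values lay within 0.05 of a whole read, and in S-phase replicate 3 99.69% did, at a spacing of 2 of the smallest steps, so its depth assumes that spacing.

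A gene entered if 2 or more libraries exceeded the lowest value by 1 unit or more, which left 14298. Limma 3.58.1 in R 4.3.3 fitted 1 mean per group over all 15 libraries with eBayes and a trend of variance on level (4.66 prior degrees of freedom), two-sided, with Benjamini and Hochberg adjustment over all genes. Voom in limma was run on the recovered reads. The method was tested on simulated data. Members, gene lists and rules were chosen with earlier results of these data known. Named genes are the 12 largest rises and falls without overlap between groups, the 8 largest each way without S-phase replicate 2, up to 4 members with the smallest p per list, and fixed cell cycle, p53 and early response genes. Other named genes were chosen after their values were seen. Motifs were searched on both strands of RefSeq promoters on GRCh38.p14, and no hg19 coordinates are given. Symbols are those of the table. In all, 13 alternatives were tried.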

Additional observations from a re-analysis of the deposited data

How the results depend on the processing

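All 5 counts of calls were followed through 13 alternatives. Leaving out each of the 5 DMSO libraries in turn gave 233 to 1112 called genes, 175 to 663 higher and 58 to 449 lower, and 239 to 663 under Nutlin. The low ends came without non-released replicate 2 (233 genes, 175 higher and 58 lower) or replicate 1 (277, 201 and 76), where the lone blocked library is assumed to vary like the other groups. Without S-phase replicate 2, 663 were called under Nutlin. With only the compared groups fitted, 335 genes passed (238 higher, 97 lower) and 737 under Nutlin. Without S-phase replicate 2 and the library labelled DMSO asynchronous replicate 3, 2028 were called (1130 and 898), and 1542 under Nutlin. Without that asynchronous library alone, an alternative chosen after seeing the data, 626 were lower and 614 called under Nutlin. The stricter filter gave 265 lower genes. The other counts, including voom with 1204 calls, stayed within 1.5 times, and the difference between releases called 0 in each. Whether same-numbered replicates belong together is not known from the labels. Deviations of same-numbered libraries correlated at 0.197 and 0.132 in the 2 pairs. The deviations of the 2 non-released libraries mirror each other, so S-phase replicate 1 with non-released replicate 2 gave -0.197. The values of both pairs are thus not separate evidence and cannot decide the pairing. A replicate block gave 1347 calls (813 higher, 534 lower). Of 111 named genes 86 were called. The stricter filter removed 16 of these. Of the other 70, 42 were called alike in each of the 13 alternatives, and of the 16, 9 in each of the 12 they entered. In no alternative did a called gene reverse. Among genes not called, leaving out 1 library moved CCNA2 between -0.11 and 0.17 (0.17 without S-phase replicate 2, also with the asynchronous library left out, and 0.03 without non-released replicate 1). EGR1 ran from -0.69 to 0.17 (0.17 without S-phase replicate 3) and RRM2 from -6e-04 to 0.15 (-6e-04 without non-released replicate 2). The cause was not tested.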
